A study of Rattus norvegicus with 10 samples.

Results

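Expression of 8 genes of the renin-angiotensin system was compared between male and female PCK rats in renal cortex. The genes were *Agt*, *Ace*, *Enpep*, *Agtr1a*, *Agtr1b*, *Agtr2*, *Mas1* and *Atp6ap2*. They were chosen by gene symbol from the 32545 genes of the expression table, and each symbol was matched to 1 protein-coding gene that overlaps no other gene of the table. PCK rats (PCK/CrljCrl-Pkhd1pck/Crl) carry a mutation of *Pkhd1* and are a model of autosomal recessive polycystic kidney disease. Both sexes carried the mutation and no treatment is labelled, so the comparison was of 5 males with 5 females among cystic animals, without a group of non-cystic rats. RNA from snap-frozen cortex was sequenced with 1 library per rat. The labels call the tissue kidney and give an age of 12 to 14 weeks, while the study's methods give cortex and 10 to 12 weeks. The rats came from 2 litters with different parents, and the litter of each was not known here.

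The renin-angiotensin system is a protease cascade that controls blood pressure and sodium balance. Angiotensinogen is cut to angiotensin I, and angiotensin-converting enzyme trims that into angiotensin II, which acts on AT1 receptors to constrict vessels and retain sodium. The AT2 receptor and the Mas receptor, the latter activated by angiotensin-(1-7), are generally described as opposing these effects. The kidney makes its own components, including angiotensinogen and the peptidases of the brush border in the proximal tubule.

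Expression is given as FPKM, fragments counted on a gene scaled to its length and to a size set for each library. This is a level per gene length, so it allows genes to be compared with each other. Each rat's value could be converted back to whole reads. The size that a library was scaled by did not follow its reads on genes. It was 1.54e+07 for male 1, with 14387669 reads, and 1.77e+07 for female 4, with 19556707 reads. The libraries held 13912569 to 20285911 reads on genes, and mitochondrial genes took 14.3% to 26.8% of them, with the highest share in female 2. Differences were tested with limma on log2(FPKM + 0.1) in the 17631 genes whose mean reached 0.1 FPKM, and p was adjusted by the Benjamini-Hochberg method over all of them. A gene was called where the adjusted p was at most 0.05 and the log2 fold change, up or down, was 1 or more. Fold changes on the log2 scale are of females over males, and the added 0.1 makes them too small where reads are few. For each gene, mean FPKM was also compared by exact permutation, two-sided and not adjusted, and with 5 rats in each sex this p cannot go below 0.00794. Errors are SDs over the 5 rats of a sex, and p-values measure the spread between these rats.

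Of the 8 genes, *Agt* was lower in females and was the only one called by limma. *Enpep* was also below the male range in every female, by a smaller margin that missed the limma threshold. The other 6 genes had overlapping ranges. Thus 1 of the 7 genes that passed the filter on low values was called, where 1.32% of all genes tested were. It was called lower, as were 0.698% of all genes tested, while none was called higher, as were 0.618%. At an unadjusted limma p under 0.05, 2 of the 7 differed, against 15.7% of all genes tested, and both were lower in females. The ranges of the sexes did not overlap for 2 of the 8 genes, against 5.10% of all genes tested (2.60% lower and 2.50% higher in females). The exact permutation p was at most 0.05 for the same genes, against 14.8% of all genes tested (7.38% lower and 7.45% higher). By the limma adjusted p whatever the fold change, 1 of the 7 was called, against 2.40% of all genes tested. *Agtr2* did not pass the filter and was compared by the exact test alone.

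**Figure D1:**
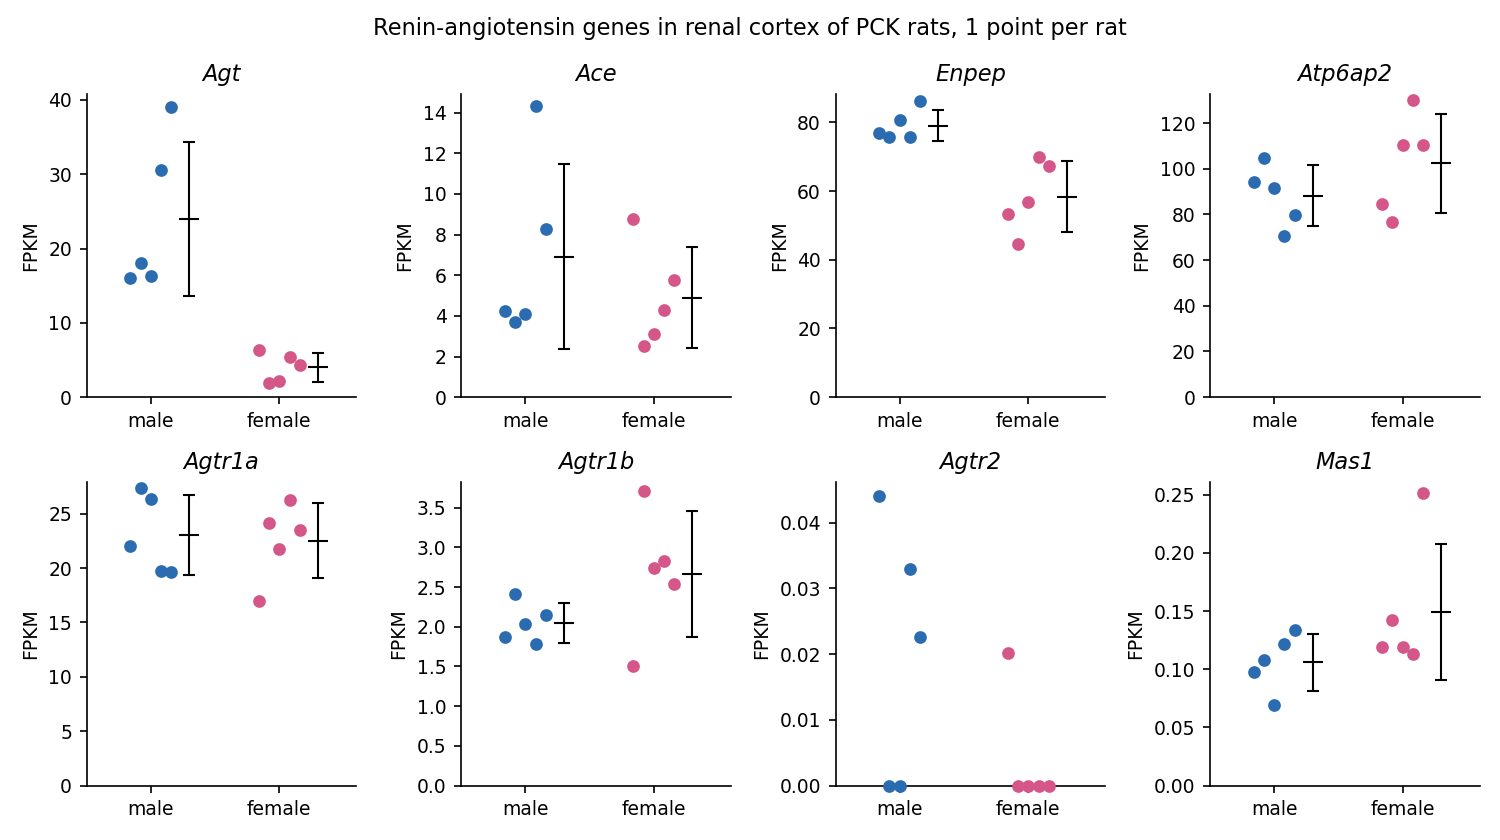
Expression of the 8 renin-angiotensin genes in FPKM (vertical axes, each starting at 0) in 5 male and 5 female PCK rats, with 1 point per rat and the mean and SD to the right of the points, except for *Agtr2*, which is listed at 0 in 6 rats. The sexes separate for *Agt* and *Enpep* and overlap for the other 6 genes.

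*Agt* encodes angiotensinogen, the precursor of the angiotensin peptides. It is listed as ENSRNOG00000018445 and lies on chromosome 19 of the rat build Rnor_6.0 (chr19:57321640-57333433, minus strand). In males 1 to 5 its level was 16.0, 18.1, 16.4, 30.6 and 39.0 FPKM. In females 1 to 5 it was 6.38, 1.95, 2.18, 5.35 and 4.29 FPKM. Every male was far above every female, and males 4 and 5 stood above the other 3 males. The means were 24.0 ± 10.3 FPKM in males and 4.03 ± 1.94 FPKM in females (SD, n = 5 each), a ratio of 5.96. *Agt* ranked 107 among all genes tested by limma (log2 fold change −2.59, SE 0.37, 95% interval −3.40 to −1.78, adjusted p = 0.00342), and the exact permutation p was 0.00794. In bulk tissue, fewer cells that express a gene and less RNA per cell cannot be told apart. The levels rested on 456 to 1219 reads per male and 53 to 207 per female. The relative spread was as wide in one sex as in the other, with a coefficient of variation of 43.0% in males and 48.3% in females.

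Marker sums of some tubule segments, though not of others, varied with *Agt* among the rats. The summed FPKM of 5 markers of the S3 segment of the proximal tubule was 324 to 817 in males and 570 to 1291 in females, so it overlapped between the sexes and its highest values were in females. *Slc7a13*, with a mean of 528 FPKM, made up most of this sum. Within a sex, rats with more S3 marker signal tended to have more *Agt*, with r = 0.83 over the 10 libraries after each sex was centred on its own mean of log2 values. The corresponding r was 0.88 for 4 markers of the thick ascending limb, whose sum was 1079 to 1616 in males and 1201 to 1818 in females (FPKM). Most of that sum was *Umod*, with a mean of 1125 FPKM. The sums of the other tubule lists were not higher where *Agt* was higher, with r of −0.16 for the proximal tubule, −0.17 for S1 and S2, −0.40 for the collecting duct and −0.37 for the distal convoluted tubule, and r was −0.70 for endothelium. These coefficients describe 10 libraries whose values share a library scale, and the part of these segments in the *Agt* difference was not tested. *Alb*, the defining hepatocyte marker, had at most 2 reads in any library, while the sum of 5 hepatocyte markers was 4.46 to 16.3 in males and 6.43 to 25.0 in females (FPKM).

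*Ace* encodes angiotensin-converting enzyme, which forms angiotensin II and also breaks down bradykinin. It is listed as ENSRNOG00000007467 (chr10:94170789-94206535, plus strand). In males 1 to 5 the level was 4.22, 3.69, 4.09, 14.3 and 8.25 FPKM. Female rats 1 to 5 had 8.78, 2.53, 3.12, 4.27 and 5.79 FPKM. The ranges overlapped broadly, and male 4 and female 1 were the highest of their sexes. The means of 6.92 ± 4.54 and 4.90 ± 2.50 FPKM did not differ beyond this spread (limma log2 fold change −0.42, SE 0.42, 95% interval −1.34 to 0.50, adjusted p = 0.695, exact permutation p = 0.468). Without male 4 the log2 fold change was −0.11 and the difference in means went from −2.02 to −0.164 FPKM, while the log2 fold change was −0.66 without female 1 and −0.22 without female 2. *Ace* had the widest relative spread of the 5 genes with a mean above 5 FPKM, at 65.7% of the mean in males and 51.1% in females. The interval allowed a female level lower by more than 1 on the log2 scale, so a difference of that size was not excluded at this spread.

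*Agt* and *Ace* varied together from rat to rat within each sex. Their correlation over the 10 libraries, with each sex centred on its own mean, was r = 0.84, and it lay between 0.80 and 0.91 when any 1 library was left out. The ratio of *Agt* to *Ace*, both in FPKM, was 2.14 to 4.90 in males. In females it was 0.697 to 1.25. In every male the level of *Agt* was more than 2 times that of *Ace*, and in 4 of 5 females it was below that of *Ace*. *Ace* was correlated with the S3 marker sum as well, at r = 0.72 over the 10 libraries centred by sex, and as strongly in the other direction with the sums of endothelium and podocyte markers (r = −0.72 each). Whether the S3 signal or any other marker signal accounts for the shared variation was not tested.

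**Figure D2:**
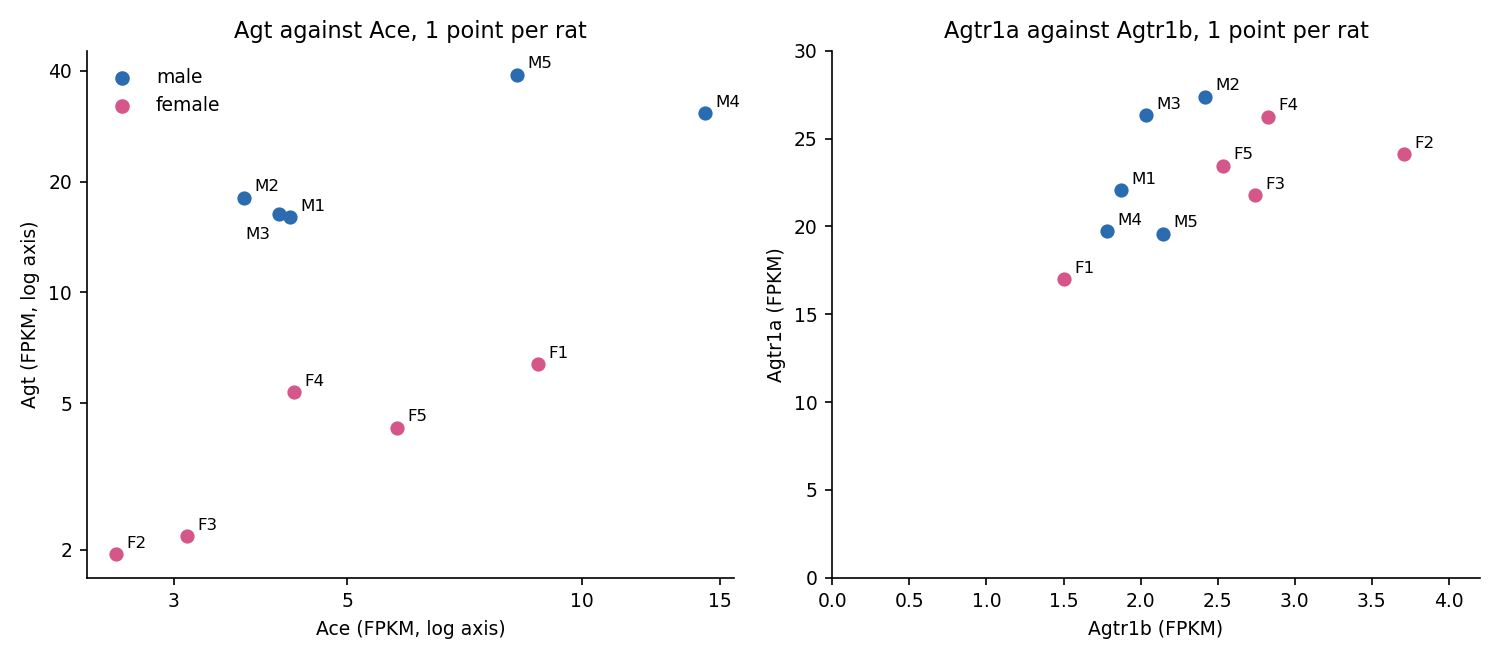
Left, *Agt* against *Ace* in FPKM on log axes; right, *Agtr1a* against *Agtr1b* in FPKM on linear axes; each point is 1 rat, labelled M for male or F for female with its number. In the left plot males lie above females at any level of *Ace*, and in both plots the genes varied together within a sex (r = 0.84 and r = 0.73 over 10 libraries centred by sex).

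*Enpep* encodes aminopeptidase A, the brush-border enzyme that removes the first residue of angiotensin II to give angiotensin III. It is listed as ENSRNOG00000051854 (chr2:233667254-233743866, minus strand). From male 1 to male 5 the values were 76.8, 75.9, 80.6, 75.7 and 86.3 FPKM. In females 1 to 5 the level was 53.4, 44.5, 57.0, 69.9 and 67.4 FPKM. Every female was below every male, the males were tightly grouped, and females 4 and 5 came nearest to them. The means were 79.1 ± 4.51 FPKM in males and 58.4 ± 10.4 FPKM in females (SD, n = 5 each), and the exact permutation p was 0.00794. The limma log2 fold change was −0.45 (SE 0.12, 95% interval −0.71 to −0.19), and its limma p of 0.00281 became an adjusted p of 0.0819 over all genes, so *Enpep* did not pass that threshold. With quantile normalization the limma adjusted p became 0.0177, with libraries scaled to equal sums without mitochondrial genes 0.0290, and with limma-voom on recovered reads 0.0457. In these fits the log2 fold change was −0.51, −0.50 and −0.53, which is short of 1.

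Among the libraries, *Enpep* was lower where the summed signal of 10 genes of mural cells and mesangium was higher (r = −0.92 over 10 libraries centred by sex). That sum was 194 to 241 in males and 92.2 to 297 in females (FPKM), and the overlap rested on female 2, the highest rat, since the other 4 females were below every male. Of its 10 genes, 9 had a negative log2 fold change (median −0.23), none was called by limma and 1 had an unadjusted limma p under 0.05. Among all genes tested 51.2% were negative, 1.32% were called and 15.7% had an unadjusted limma p under 0.05. The sum of 5 fibroblast markers did separate the sexes, at 234 to 320 in males and 76.8 to 230 in females (FPKM), and its r with *Enpep* was −0.74. Further coefficients with *Enpep* were 0.71 for thick ascending limb, 0.52 for proximal tubule, −0.69 for leukocyte, −0.65 for adrenal cortex and −0.61 for hepatocyte markers. The adrenal cortex sum was at most 1.48 FPKM, the hepatocyte sum was nearly all *Fgb* and the thick ascending limb sum was mostly *Umod*. The part of these cells in the *Enpep* values was not tested.

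The promoter sequences of *Enpep* and of the AT1 receptor genes are shown because *Enpep* separated the sexes and the paralogous receptor genes differed in level. The RefSeq table of promoters on the build GRCr8, which differs from the build of the expression table, held 7 of the 8 genes (not *Agt*). Each run is the 250 bases before the start of the gene, 5′ to 3′ on the gene's strand: chr2:220526219-220526468 (minus) for *Enpep*, chr17:34435433-34435682 (minus) for *Agtr1a* and chr2:104849263-104849512 (minus) for *Agtr1b*. Capitals mark matches, on either strand, to AGAACA, a half-site shared by several steroid hormone receptors, to GGTCA, a half-site of the estrogen receptor, or to TATAAA, the TATA box.
*Enpep*: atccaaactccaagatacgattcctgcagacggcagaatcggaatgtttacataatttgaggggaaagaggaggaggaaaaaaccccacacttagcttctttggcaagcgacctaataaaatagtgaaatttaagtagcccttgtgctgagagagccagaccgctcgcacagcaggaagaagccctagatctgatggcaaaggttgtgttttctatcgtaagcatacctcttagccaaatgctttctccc
*Agtr1a*: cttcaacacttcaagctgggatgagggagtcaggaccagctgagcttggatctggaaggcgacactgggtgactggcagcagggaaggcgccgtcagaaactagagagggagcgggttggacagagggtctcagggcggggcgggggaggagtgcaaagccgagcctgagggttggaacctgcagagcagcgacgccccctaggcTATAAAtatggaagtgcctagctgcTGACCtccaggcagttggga
*Agtr1b*: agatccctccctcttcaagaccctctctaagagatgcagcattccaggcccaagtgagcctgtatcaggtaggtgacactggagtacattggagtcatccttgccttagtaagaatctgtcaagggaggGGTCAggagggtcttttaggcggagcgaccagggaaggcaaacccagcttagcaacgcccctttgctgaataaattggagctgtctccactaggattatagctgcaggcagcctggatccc
The window of *Enpep* held none of these letters. That of *Agtr1a* held TATAAA from −45 to −40 and TGACC, the reverse complement of GGTCA, from −20 to −16, counted back from the start. That of *Agtr1b* held GGTCA from −121 to −117 and no TATAAA. *Ace* had TTTATA, the reverse complement of TATAAA, from −42 to −37, *Atp6ap2* had GGTCA on both strands between −220 and −211, and *Agtr2* and *Mas1* had no match. Of 33469 promoters of the same length, 17.5% held AGAACA on either strand, 35.4% GGTCA and 12.9% TATAAA, so such matches are common and mark letters only. No 2 of the matches in these 7 windows overlapped.

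*Agtr1a* and *Agtr1b* both encode the AT1 receptor, which rodents have as a pair of paralogs. *Agtr1a* is listed as ENSRNOG00000018346 (chr17:35907108-35958077, minus strand). Male rats 1 to 5 had 22.1, 27.4, 26.3, 19.7 and 19.6 FPKM, and females 1 to 5 had 17.0, 24.1, 21.8, 26.3 and 23.5 FPKM. The ranges overlapped almost fully, and female 1 was the lowest rat. The means of 23.0 ± 3.66 and 22.5 ± 3.47 FPKM gave a limma log2 fold change of −0.03 (SE 0.14, 95% interval −0.33 to 0.27, adjusted p = 0.945, exact permutation p = 0.825). Its sign turned positive when male 2 (0.03), male 3 (0.02) or female 1 (0.07) was left out.

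*Agtr1b* is listed as ENSRNOG00000010640 (chr2:105149020-105224295, minus strand) and had 55 to 114 reads per library. Levels in males 1 to 5 were 1.87, 2.42, 2.04, 1.78 and 2.14 FPKM, and females 1 to 5 had 1.503, 3.71, 2.74, 2.82 and 2.54 FPKM. Female 1 was below every male and the other 4 females were above every male. With all rats the means were 2.05 ± 0.249 and 2.66 ± 0.790 FPKM and did not differ by either test (limma log2 fold change 0.32, SE 0.21, 95% interval −0.14 to 0.77, adjusted p = 0.508, exact permutation p = 0.127). Without female 1 the difference was 0.904 FPKM with an exact permutation p of 0.00794, so that rat decided the outcome of the exact test. Without female 2, the highest, the difference was 0.352 FPKM and the log2 fold change 0.19. The limma adjusted p stayed above the threshold whichever library was left out, between 0.140 and 0.680.

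The level of *Agtr1a* was 9.15 to 12.9 times that of *Agtr1b* in males and 6.49 to 11.3 times in females, both per length. *Agtr1a* made up 90.1% to 92.8% of the summed AT1 receptor level in males and 86.7% to 91.9% in females. The paralogs varied together, with r = 0.73 over the 10 libraries centred by sex, and r was 0.41 at the lowest when 1 library was left out. Reads that fit both genes could have been divided between them or dropped by the counting, so the values of each are uncertain to that extent. Among the marker sums, *Agtr1b* varied most with podocytes (r = 0.81) and endothelium (r = 0.72) over the 10 libraries centred by sex. *Agtr1a* varied most with the hepatocyte sum, which was nearly all *Fgb* (r = −0.73), and with the proximal tubule (r = 0.68). The part of these cells was not tested for either gene. Both varied against *Ace*, with r = −0.74 for *Agtr1a* and −0.70 for *Agtr1b* over the same 10 libraries.

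*Agtr2* encodes the AT2 receptor, which is abundant in the fetal kidney and scarce in the adult. It is listed as ENSRNOG00000050006 (chrX:119390013-119393842, plus strand). Males 1 to 5 had 2, 0, 0, 2 and 1 reads, and the only read in a female was in female 1. Every library was below 3 reads, which is taken as the limit of detection and corresponds to 0.0495 to 0.0723 FPKM for this gene, so expression was not detectable at this depth in either sex. This limit reflects counting error alone, because reads that carry no molecular identifier are not independent molecules. The exact permutation p was 0.167.

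*Mas1* encodes the Mas receptor and is listed as ENSRNOG00000014971 (chr1:48077033-48108216, plus strand). Males 1 to 5 had 3, 4, 2, 5 and 4 reads, and females 1 to 5 had 4, 4, 4, 4 and 8 reads. Female 5 was the highest, and most other libraries were near the 3 reads that mark the limit of detection. The levels of 0.106 ± 0.0246 FPKM in males and 0.149 ± 0.0585 FPKM in females did not differ beyond this spread (limma log2 fold change 0.26, SE 0.28, 95% interval −0.37 to 0.88, adjusted p = 0.726, exact permutation p = 0.119). Without female 5 the log2 fold change was 0.12 and the difference in means 0.0174 in place of 0.0431 FPKM, and with a pseudocount of 1 the log2 fold change was 0.054, with 0.01 it was 0.42 and with quantile normalization 0.43. With so few reads, a difference within that interval was not excluded.

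*Atp6ap2* encodes the (pro)renin receptor, which is also an accessory subunit of the V-ATPase, the proton pump of lysosomes and intercalated cells. It is listed as ENSRNOG00000003858 (chrX:11136939-11164915, minus strand). The 5 males, in the order of their numbers, had 94.1, 104.9, 91.5, 70.4 and 80.0 FPKM, and females 1 to 5 had 84.5, 76.5, 110.2, 130.0 and 110.6 FPKM. Females 3, 4 and 5 were above every male, while females 1 and 2 were within the male range. The means of 88.2 ± 13.3 and 102 ± 21.7 FPKM did not differ beyond the spread (limma log2 fold change 0.20, SE 0.16, 95% interval −0.14 to 0.55, adjusted p = 0.589, exact permutation p = 0.246). Without female 4 the log2 fold change was 0.11 and the difference in means 7.28 in place of 14.2 FPKM, and the log2 fold change was 0.12 without male 4 and also with limma-voom. The level of *Atp6ap2* followed the sum of 8 proximal tubule markers (r = 0.80 over 10 libraries centred by sex), which was 4723 to 8450 in males and 5475 to 10191 in females (FPKM). Larger still, with the opposite sign, was r with the sum of 5 hepatocyte markers (−0.93), which was nearly all *Fgb*. The value of r was −0.80 for adipocyte, −0.71 for mural cell and 0.72 for collecting duct markers. *Atp6ap2* also followed *Enpep*, with r = 0.69 over the same libraries.

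**Figure D3:**
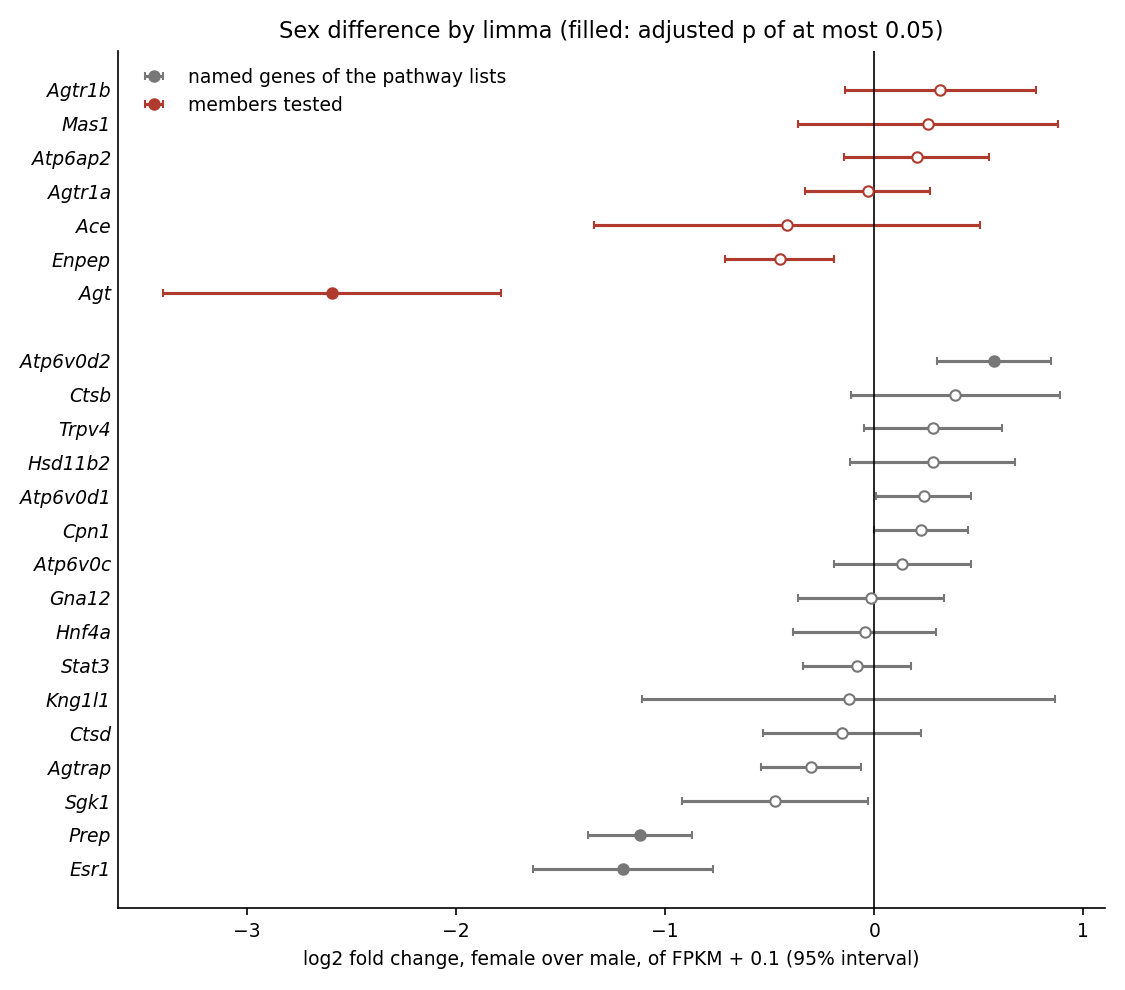
Log2 fold change of females over males from limma, with 95% intervals, for the 7 renin-angiotensin genes that passed the filter on low values (red) and the named genes of the pathway lists (grey, those reported here), filled where the adjusted p is at most 0.05. Among the 7, the intervals of *Agt* (−3.40 to −1.78) and *Enpep* (−0.71 to −0.19) lie below 0 and the other 5 include 0.

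Ordered by mean level per length, the genes ran in males from *Atp6ap2* and *Enpep* through *Agt* and *Agtr1a* to *Ace*, *Agtr1b*, *Mas1* and *Agtr2*. The ranges of *Atp6ap2* and *Enpep* overlapped in males, where *Atp6ap2* was the higher in 3 of 5 rats. The ranges of *Agt* and *Agtr1a* overlapped too, with *Agt* the higher in 2 of 5 males. In females the order was *Atp6ap2*, *Enpep*, *Agtr1a*, *Ace*, *Agt*, *Agtr1b*, *Mas1* and *Agtr2*. There the overlapping neighbours were *Ace* and *Agt*, with *Ace* the higher in 4 of 5 rats, and *Agt* and *Agtr1b*, with *Agt* the higher in 3 of 5 rats. All other neighbours in either order were separated in every rat of that sex. The position of *Agt* thus moved from beside *Agtr1a* in males to between *Ace* and *Agtr1b* in females.

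The genes whose levels tracked each member most closely were taken from the 13363 genes whose mean reached 1 FPKM, by the correlation of log2 values over the 10 libraries centred by sex. For *Agt* they were *Stk32c* (r = 0.97), *Etnk2* (0.96) and *F2* (0.95), which encodes prothrombin and had 26.5 FPKM on average in males and 14.9 in females. For *Ace* they were *Irx5*, *Clmp* and *Dpy19l3* (r = 0.95 each), and for *Enpep* they were *Exosc10* (0.96), *Slc18b1* (0.95) and *Park7* (0.95). *Agtr1a* was followed most closely by *Kifap3* (0.95), *Ninj1* (0.94) and *Ttc36* (0.94), and *Agtr1b* by *Iqub* (0.92), *Klk1c9* (0.91) and *Fam81a* (0.91). *Atp6ap2* was followed by *Saraf*, *Sergef* and *Rfc2* (0.98 each). These are the highest of many coefficients over 10 libraries that share a scale, and they describe these libraries only. Leaving out female 1 lowered the coefficient of *Iqub* with *Agtr1b* to 0.78, and leaving out female 2 lowered that of *Park7* with *Enpep* to 0.89.

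The genes around the cascade were taken from 7 lists, which had 92 entries in the table, of which 89 passed the filter. By the limma adjusted p alone, 1 was higher in females, against 1.26% of all genes tested, and 2 were lower, against 1.14%. These genes were *Prep* and *Esr1* on the lower side, which also passed the fold threshold, and *Atp6v0d2* on the higher side, which did not. The median log2 fold change of the 89 was 0.00 and that of all genes tested was −0.01. The ranges of the sexes did not overlap for 9 of the 89, against 5.10% of all genes tested. At an unadjusted limma p under 0.05 there were 25 of the 89, against 15.7% of all genes tested.

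Of the other enzymes that process angiotensins, 14 of 15 passed the filter, 1 was called lower in females (0.698% of all genes tested) and none higher (0.618%), and 3 had an unadjusted p under 0.05 (15.7% of all genes tested). *Prep* encodes prolyl oligopeptidase, which can form angiotensin-(1-7) from angiotensin I or angiotensin II. In males 1 to 5 the level was 23.5, 28.9, 22.7, 34.6 and 30.9 FPKM, and females 1 to 5 had 12.6, 12.8, 13.1, 12.7 and 12.4 FPKM. The sexes were far apart and the females nearly equal, with means of 28.1 ± 5.02 and 12.7 ± 0.256 FPKM (limma log2 fold change −1.12, SE 0.11, adjusted p = 3.74e-04). The most abundant of this list were the lysosomal proteases *Ctsb*, with 1039 ± 226 FPKM in males and 1367 ± 357 FPKM in females (limma adjusted p = 0.453), and *Ctsd*, with 659 ± 81.0 and 602 ± 137 FPKM (limma adjusted p = 0.727).

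Of 3 further processing enzymes, named here after their values were seen, none passed the limma threshold. *Prcp*, a lysosomal carboxypeptidase that also removes the last residue of angiotensin II, had 7.64 ± 1.59 and 4.51 ± 1.21 FPKM, with ranges that did not overlap (limma log2 fold change −0.77, adjusted p = 0.0922). *Mme*, neprilysin, had 74.4 ± 24.6 and 58.1 ± 12.7 FPKM (limma adjusted p = 0.547). *Anpep*, aminopeptidase N of the brush border, had 162 ± 43.5 and 171 ± 40.1 FPKM (limma adjusted p = 0.878).

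**Figure D4:**
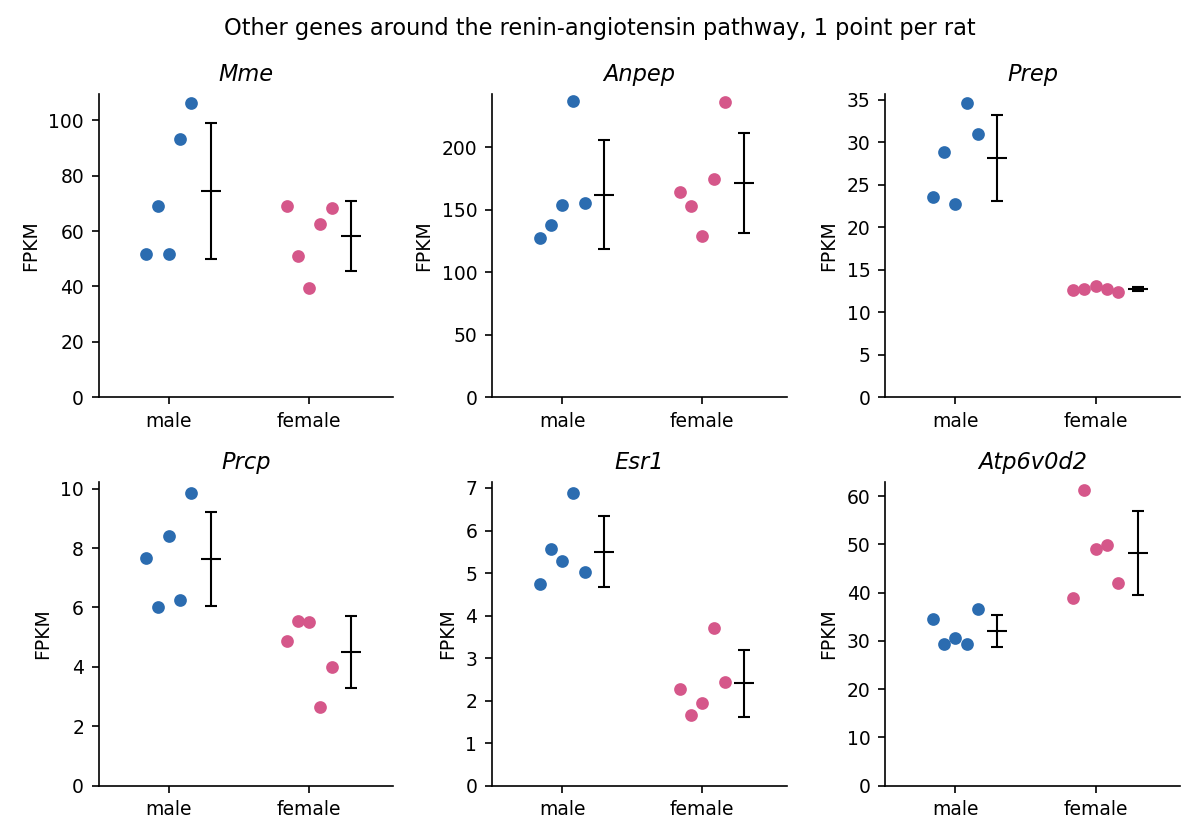
Expression in FPKM (vertical axes, each starting at 0) of 6 genes around the renin-angiotensin cascade in 5 male and 5 female PCK rats, with 1 point per rat and the mean and SD to the right. *Prep*, *Prcp*, *Esr1* and *Atp6v0d2* separate the sexes, and *Mme* and *Anpep* overlap.

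Among transcription factors with known sites at the *Agt* gene, 1 of 16 entries tested was called lower (0.698% of all genes tested) and none higher (0.618%), and 4 had an unadjusted p under 0.05 (15.7% of all genes tested). That gene was *Esr1*, which encodes estrogen receptor alpha. Male rats 1 to 5 had 4.75, 5.58, 5.29, 6.88 and 5.03 FPKM, and females 1 to 5 had 2.27, 1.66, 1.95, 3.72 and 2.43 FPKM. Every female was below every male (means 5.50 ± 0.826 and 2.40 ± 0.791 FPKM, limma log2 fold change −1.20, SE 0.20, adjusted p = 0.00793). The most abundant of the list were *Hnf4a*, a hepatocyte and proximal tubule factor, with 143 ± 13.2 and 141 ± 31.4 FPKM (limma adjusted p = 0.926), and *Stat3*, with 50.4 ± 3.69 and 48.1 ± 8.33 FPKM (limma adjusted p = 0.798).

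The V-ATPase genes, which encode the pump that *Atp6ap2* accompanies, had positive log2 fold changes in 14 of 17, with a median of 0.14, and 7 had an unadjusted p under 0.05, against 48.8% positive and 15.7% under 0.05 among all genes tested. Of these genes, only *Atp6v0d2*, a d subunit of the pump found in intercalated cells, passed the adjusted p. Levels in males 1 to 5 were 34.6, 29.4, 30.7, 29.3 and 36.7 FPKM, and females 1 to 5 had 39.0, 61.3, 49.0, 49.9 and 42.0 FPKM. The ranges did not overlap, and the limma log2 fold change was 0.57 (SE 0.12, adjusted p = 0.0351), below the fold threshold. The adjusted p rose above 0.05 in 7 of the 10 fits that left out 1 library (male 1, 2, 3 or 4, or female 3, 4 or 5), with limma adjusted p up to 0.0937. It also did so with quantile normalization (limma adjusted p = 0.0799), equal sums without mitochondrial genes (0.0640), eBayes without trend (0.0656) and the replicate number as a block (0.150). The most abundant subunits, *Atp6v0c* with 447 ± 42.1 and 498 ± 101 FPKM and *Atp6v0d1* with 174 ± 15.3 and 206 ± 25.5 FPKM, did not pass (limma adjusted p = 0.726 and 0.3004). The collecting duct marker sum was 157 to 236 in males and 186 to 266 in females (FPKM), and its part in these values was not tested.

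No gene passed the limma adjusted p in the other 4 lists. Among receptor partners and AT1 signalling genes, 11 of 14 had negative log2 fold changes and 4 had an unadjusted p under 0.05, against 51.2% and 15.7% of all genes tested. *Agtrap*, which encodes a protein that drives internalization of the AT1 receptor, had 75.0 ± 4.67 and 61.3 ± 9.38 FPKM without overlap (limma adjusted p = 0.198), and *Gna12*, a G protein subunit, had 90.8 ± 13.4 and 90.6 ± 18.6 FPKM (limma adjusted p = 0.977). Of 5 kallikrein-kinin genes tested, 1 had an unadjusted p under 0.05, and the most abundant were *Cpn1*, a carboxypeptidase that removes the last residue of kinins, with 12.3 ± 0.984 and 14.4 ± 1.88 FPKM (limma adjusted p = 0.322), and *Kng1l1*, a kininogen gene, with 9.72 ± 4.16 and 10.1 ± 6.40 FPKM (limma adjusted p = 0.934). Of 14 entries for juxtaglomerular cells and the macula densa, 4 had an unadjusted p under 0.05, and *Trpv4*, a calcium channel, was the most abundant with 28.3 ± 4.95 and 34.2 ± 5.27 FPKM (limma adjusted p = 0.409). Of 10 entries of the aldosterone arm, 3 had an unadjusted p under 0.05, and the most abundant were *Hsd11b2*, which inactivates glucocorticoids, with 178 ± 39.6 and 216 ± 46.1 FPKM (limma adjusted p = 0.498), and *Sgk1*, an aldosterone-induced kinase, with 68.3 ± 19.5 and 48.7 ± 10.7 FPKM (limma adjusted p = 0.284).

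The labelled tissue was checked on the marker lists. Single markers that passed the limma adjusted p, named after their values were seen, are given with the number tested in their list. Higher in females were *Cubn* (1 of 8, proximal tubule), *Slc5a1* (1 of 5, S3) and *Kcnj1* (1 of 4, thick ascending limb). So were *Avpr2* (1 of 5, collecting duct), *Vwf* (1 of 9, endothelium) and *Ttr* (1 of 4, hepatocyte). Lower were *Col3a1* (1 of 5, fibroblast) and *Cidec* (1 of 2, adipocyte). None passed in the other marker lists. Of all genes tested, 1.26% were higher and 1.14% lower by this adjusted p. Signs ran 1 way in the lists for S3 (5 of 5 positive), thick ascending limb (4 of 4 positive), collecting duct (5 of 5 positive), podocytes (6 of 6 positive), distal convoluted tubule (2 of 2 tested positive), fibroblasts (5 of 5 negative), leukocytes (7 of 7 negative) and mast cells (3 of 3 tested negative), and in 9 of 10 genes of mural cells (negative). Of all genes tested, 48.8% had a positive log2 fold change and 51.2% a negative one. Among the mixed lists, 4 of 9 endothelium markers were negative, as were 2 of 4 hepatocyte markers tested and 3 of 8 proximal tubule markers (*Aqp1*, log2 fold change −0.56), and *Adipoq* was positive (0.74, ranges not overlapping). Markers of proximal tubule, thick ascending limb, collecting duct, podocytes (131 to 220 FPKM over both sexes) and endothelium (157 to 244 FPKM) were present in every library. Those of the adrenal cortex summed to at most 1.48 FPKM, leukocyte markers to 25.1 to 90.1 FPKM and mast cell markers to 9.24 to 12.8 FPKM. Nearly all of the mast cell sum was *Kit*, with a mean of 10.2 FPKM, and each other mast cell marker averaged at most 0.398 FPKM. *Pvalb*, 1 of 3 markers of the distal convoluted tubule, was listed at 0 in every library, and the sum of the 3 was 83.3 to 187 FPKM. The 5 markers of S1 and S2 summed to 200 to 650 in males and 259 to 736 in females (FPKM), and the 4 adipocyte markers to 10.2 to 15.8 and 7.00 to 12.0 FPKM.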

How the data were processed

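The data were RNA-seq libraries of renal cortex, 1 from each of 5 male and 5 female PCK rats, and sex was taken from the labels. The authors deposited 1 table of FPKM for 32545 genes on Rnor_6.0, with gene lengths and positions. The submitters' processing notes name fastp, HISAT2 2.0.5, StringTie 1.3.3b and featureCounts 1.5.0-p3, and whether counting used strand is not given in the sources used here. The authors' own DESeq2 results were not used. No per-sample column was left out (0 columns).

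The deposited FPKM and gene length gave whole reads for every value (within 0.01 of a read), which gave depth and the limit of 3 reads. FPKM are not counts, so all genes whose mean reached 0.1 FPKM were tested on log2(FPKM + 0.1) with limma 3.58.1 (lmFit, eBayes with trend, R 4.3.3). Benjamini-Hochberg adjustment ran over all genes tested, and the thresholds (0.05 and a log2 fold change of 1) are those of the study's methods. Single genes had an exact permutation test (Python 3.11.15, numpy 2.4.6, pandas 2.3.3, scipy 1.17.1), and figures used matplotlib 3.10.9. Both procedures were tested on simulated data.

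The 8 members, the lists and the marker genes were chosen with earlier results of these data known. By rule, the text names all members, list genes with a limma adjusted p of at most 0.05, the 2 most abundant genes of each list and the 3 genes most similar to each member whose mean reached 1 FPKM. *Grk2*, *Kng1*, *Kng2*, *Klk1* and *Cyp11b1* were not matched by symbol and were not analysed here. Results for some list genes that the rule covers are not reported here. *Rbpj*, *Nr3c1* and *Tsc22d3* are each listed under 2 identifiers. Promoter sequences are RefSeq's, on GRCr8, and no coordinates were converted. Each of these was changed in turn: the pseudocount (1 or 0.01), the filter (none, or a mean of 1 FPKM), the scale (median-ratio, quantile, or equal sums without mitochondrial genes), the variance model (robust eBayes, eBayes without trend, limma-voom on recovered reads), a block for replicate number, calls by the adjusted p alone, and the libraries included (each left out once).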

Additional observations from a re-analysis of the deposited data

Results flagged for a closer look

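Among the 16 groups of 5 rats formed by 8 genes and 2 sexes, 2 held a rat whose gap to its nearest neighbour exceeded Dixon's critical value of 0.71 as a share of the group's range, and chance flags about 1 group in 20 for continuous values, a rate that does not carry over to groups of so few reads. *Mas1* in females had a share of 0.791, because female 5 was at 0.252 FPKM with 8 reads while the other females had 4 reads each. *Agtr2* in females had a share of 1, because the read in female 1 was the only one in that sex, and a single read among zeros always gives this share. Both genes are near or below the limit of detection of 3 reads, and the source of these values was not tested.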

How the results depend on the processing

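*Agt* stayed lower in females and past the limma threshold under the 10 alternatives to its fit that could move it (log2 fold change −2.69 to −2.32, adjusted p up to 0.00842) and in all 10 fits that left out 1 library (−2.79 to −2.38, adjusted p up to 0.0119). *Enpep* kept its direction throughout and passed the limma adjusted p under quantile normalization (−0.51), equal sums without mitochondrial genes (−0.50) and limma-voom (−0.53), with adjusted p of 0.0177 to 0.123 over the alternatives and 0.0509 to 0.167 without 1 library. *Agtr1a* reversed in leave-one-out fits, which spanned −0.091 to 0.065 on the log2 scale and −1.43 to 0.885 FPKM for the difference in means. The difference of *Agtr1b* spanned 0.352 to 0.904 FPKM without 1 library, the highest being without female 1. Leave-one-out fits also reversed *Gna12* (−0.11 to 0.10), *Kng1l1* (−0.41 to 0.20), *Hnf4a* (−0.13 to 0.092) and *Stat3* (−0.16 to 0.0070). The 109 genes called higher and 123 called lower over the whole table became 65 and 72 with a pseudocount of 1, and 223 and 201 by the adjusted p alone. They ranged over 82 to 114 and 89 to 148 without 1 library. In the lists, where the adjusted p alone was counted, the single gene higher in females (*Atp6v0d2*, whose fold change is short of the threshold) became 0 under quantile normalization, equal sums, eBayes without trend and the replicate block, and 0 to 2 without 1 library, with *Atp6v1b1* added without female 1 and *Scnn1a* in place of *Atp6v0d2* without male 1. Those lower by the adjusted p alone were 2 to 4, with *Cebpb* and *Rgs2* added without female 2. The cause of these changes was not tested. With the replicate number as a block, 89 genes were called higher and 87 lower, and 165 were shared with the fit without it. The numbers do not pair the rats: deviations of same-numbered rats correlated at −0.16 to 0.16, 1 of 5 pairs exceeded 0.1 and 1 of 5 males correlated best with its own number. *Mas1* could not be tested with the filter at a mean of 1 FPKM. All libraries had the same median-ratio factor (1.01), so the deposited values were already on that scale and scaling by it tested nothing. The other scalings moved the median log2 fold change of all genes to −0.05 at most (equal sums), and limma-voom gave −0.08. Depth limits *Agtr2* and *Mas1*, and 5 rats per sex with unknown litters limit the rest.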
